A study of Mus musculus with 24 samples.

Results

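The 10 genes described here encode the cyclins, cyclin-dependent kinases and phosphatase that carry a cell from G1 into S phase: Ccnd1, Ccnd2, Ccnd3, Ccne1, Ccne2, Ccna2, Cdk2, Cdk4, Cdk6 and Cdc25a. They were taken by symbol, whatever their values, from a table of 25239 genes. All 10 were expressed highly enough to be among the 14104 genes tested. RNA-seq had been done on 6 cell lines grown from mouse small cell lung tumors, with 1 library per line and condition, 24 in all. The lines carry Rb1 fl/fl, Trp53 XTR/XTR, Rbl2 fl/fl and Rosa26 FlpO-ER alleles on a mixed B6J and 129S4vJae background. Adenoviral Cre driven by the CMV promoter had recombined Rb1 and Rbl2 and switched Trp53 off through a gene trap in all of them, the control libraries included. 4-hydroxytamoxifen (4-OHT) lets FlpO-ER remove the trap, which restores the p53 protein. After restoration, some lines die and others arrest but survive, and the study named them Type D and Type V. Type D is represented by 4711-1, 4711-18 and 4716-11, and Type V by 4711-11, 4716-10 and 4716-14, called line 1, 2 and 3 of their type below, in that order. Each line was sampled at 72 h as Control (vehicle), Control + CsA (cyclosporin A, a drug that binds cyclophilins), Restored (4-OHT) and Restored + CsA, which gave 8 groups of 3 lines. Because a group holds 3 separate lines, p-values of the main fit measure the spread between lines, and no line has a repeat within a condition. That fit has no term for the line, although restoration and CsA were each compared in the same lines. An alternative fit with the line as a block compares each line with itself. Its p-values for restoration and CsA measure how far the changes within lines vary.

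D-type cyclins bind Cdk4 and Cdk6 when growth signals arrive, and the kinases then phosphorylate the retinoblastoma protein and its relatives. This frees E2F factors, which switch on cyclin E, cyclin A and the enzymes of DNA synthesis. Cyclin E with Cdk2 starts S phase, cyclin A with Cdk2 carries it through, and the phosphatase Cdc25a removes inhibitory phosphates from Cdk2. p53 works against this sequence mainly through p21, the product of Cdkn1a, which binds and inhibits cyclin-Cdk complexes. In small cell lung cancer the retinoblastoma gene is nearly always lost, so the step controlled by the D-type cyclins lies upstream of a missing target.

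Values are TPM (the abundance of a transcript relative to all others, scaled by its length), which keeps no record of sequencing depth, so the depth of each library is unknown. Trp53 lay between 10.5 and 15.3 TPM in the 12 libraries without 4-OHT and between 181 and 253 TPM in the 12 with it, so no library went against its label. Cdkn1a lay at 37.5 to 145 TPM without 4-OHT and at 1068 to 2540 TPM with it. Most neuroendocrine markers of small cell lung cancer were low. Chga and Grp were at 0 in all 24 libraries, and Neurod1, Calca, Dll3 and Chgb reached 0.0954, 0.105, 0.148 and 0.28 TPM at most. Syp reached 1.41 TPM at most. Insm1 ranged from 0 to 49.6 TPM, Uchl1 from 0 to 40.9 TPM, and Ncam1 lay at 4.46 to 27.3 TPM. Ptprc, which marks leukocytes, stayed at or below 0.154 TPM. A gene "passed" below when its Benjamini-Hochberg adjusted p over all 14104 genes was under 0.05 in limma.

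In the GENCODE M21 annotation of GRCm38 the genes lie on 8 chromosomes. The D-type cyclin genes are Ccnd1 (chr7:144929931-144939925, minus strand), Ccnd2 (chr6:127125162-127152193, minus) and Ccnd3 (chr17:47505051-47599691, plus). Cyclin E is encoded by Ccne1 (chr7:38097984-38107534, minus) and Ccne2 (chr4:11191351-11204779, plus), and cyclin A by Ccna2 (chr3:36564865-36572150, minus). The kinase genes are Cdk2 (chr10:128697939-128705031, minus), Cdk4 (chr10:127063534-127067920, plus) and Cdk6 (chr5:3341485-3531008, plus), and Cdc25a lies at chr9:109875579-109893895 (plus). Ccnd1 shares 1100 exonic bases with LTO1 on the opposite strand, 23.4% of its exonic length, and LTO1 reached 12.1 TPM at most. Ccne2 shares 609 with Ints8, 17.4% of its length, and Ints8 reached 36.8 TPM, above the highest Ccne2 value of 21.9 TPM. Cdk4 shares 641 exonic bases with Tspan31 on the opposite strand, 19.7% of its exonic length, and Tspan31 reached 225 TPM. Ccna2 shares 510 exonic bases with Exosc9, 12.5% of its length, also on the opposite strand. Exosc9 reached 98.6 TPM, above the highest Ccna2 value in Restored, 42.7 TPM. The libraries were stranded, but whether strand was used in counting is not stated, so reads over these stretches may belong to either gene.

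Promoters were read from a RefSeq table on GRCm38.p6 that holds the 250 bases before and 50 after each gene start, and 6 of the 10 genes matched (Ccnd3 with 2 starts). Cdc25a and Cdk4 are shown because they were lower after restoration, and Cdk2 because its differences did not pass (values below). Capitals mark a match to an E2F site (TTTCCCGC, TTTCGCGC, TTTGCCGC or TTTGGCGC) or to an E-box (CACGTG), on either strand. The E-box was added to the search after the sequences had been read.
Cdc25a (chr9:109875329-109875628, plus strand): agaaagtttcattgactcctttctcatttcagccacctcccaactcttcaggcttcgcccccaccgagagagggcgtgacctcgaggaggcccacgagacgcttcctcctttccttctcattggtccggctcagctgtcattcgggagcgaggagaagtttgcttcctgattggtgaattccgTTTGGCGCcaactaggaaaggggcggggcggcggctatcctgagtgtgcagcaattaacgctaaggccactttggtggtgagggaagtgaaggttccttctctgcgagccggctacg
Cdk2 (chr10:128705002-128705301, minus strand): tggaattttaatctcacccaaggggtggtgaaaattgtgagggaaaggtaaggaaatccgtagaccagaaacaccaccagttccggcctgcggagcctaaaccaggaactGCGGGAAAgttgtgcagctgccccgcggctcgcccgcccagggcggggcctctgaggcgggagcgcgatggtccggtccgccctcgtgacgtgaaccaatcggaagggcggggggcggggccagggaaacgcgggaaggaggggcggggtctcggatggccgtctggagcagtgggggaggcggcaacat
Cdk4 (chr10:127063285-127063584, plus strand): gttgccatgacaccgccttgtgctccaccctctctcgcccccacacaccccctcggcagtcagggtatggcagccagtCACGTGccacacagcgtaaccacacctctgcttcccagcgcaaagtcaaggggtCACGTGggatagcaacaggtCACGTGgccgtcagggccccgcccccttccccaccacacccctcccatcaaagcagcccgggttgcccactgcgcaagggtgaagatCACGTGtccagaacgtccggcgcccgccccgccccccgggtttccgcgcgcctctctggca
Cdc25a held 1 E2F match, 67 bases before the start, and Cdk2 held 1, 140 bases before it. Of all 32851 promoters in the table, 2.26% held an E2F match. Cdk4 held 4 E-box matches, at 172, 118, 98 and 11 bases before the start, and Cdk6 held 1, 220 bases before it. An E-box, which binds Myc and related factors, was found in 7.15% of all promoters. None of the 7 promoters of these genes held the CHR motif TTTGAA, found in 17.9% of all promoters, or the CRE motif TGACGTCA, found in 1.79%. Ccna2, Ccnd1, Ccnd2 and Ccne2 were not matched, so their promoters were not searched for any motif. A match is a run of letters, not a measured binding site.

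In Control, the 10 genes spanned levels from 8.17 TPM (Ccne2, Type V line 2) to 1011 TPM (Cdk4, the same line), and the kinase Cdk4 had the highest mean in both types. It stood at 821 ± 134 TPM in Type D (SD, n = 3) and 959 ± 59.3 TPM in Type V. In Type D it was followed by Ccnd1 at 668 ± 177 TPM, whose range overlapped that of Cdk4, and by Ccnd2 at 264 ± 109 and Ccna2 at 189 ± 39.2 TPM, which overlapped each other. Below these came Cdk2 and Ccnd3, then Cdc25a, Ccne1 and Cdk6 between 34.2 and 36.2 TPM with overlapping ranges, and Ccne2 at 13.7 ± 3.50 TPM, below all others. In Type V, Ccnd1 at 275 ± 25.9 and Ccna2 at 228 ± 39.8 TPM overlapped, and all of Cdk4 lay above them. Cdk2, Ccnd2 and Ccnd3 followed at 71.9 to 87.1 TPM with overlapping ranges, then Cdk6, Ccne1 and Cdc25a at 38.2 to 47.3 TPM, and Ccne2 at 11.6 ± 4.504 TPM. TPM is scaled by length, so these are levels that can be set beside each other between genes. Over all 24 libraries, Ccna2 had the widest range of the 10, with its highest value 33.6 times its lowest. Ccnd3 had the narrowest, at 1.77 times.

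**Figure D1:**
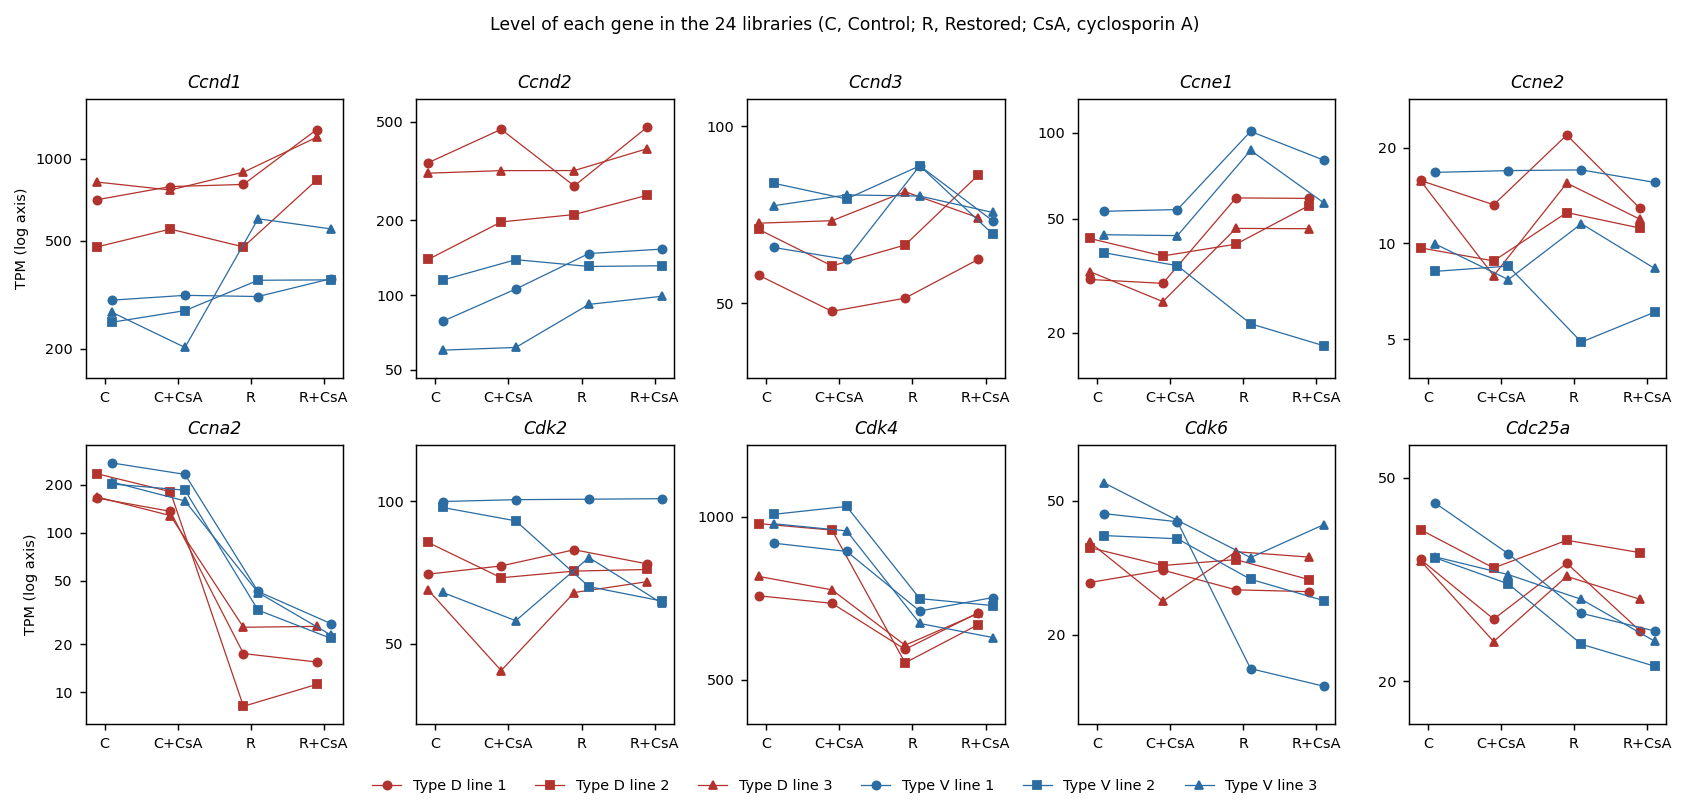
Level of each gene in TPM (log axis) in Control (C), Control + CsA, Restored (R) and Restored + CsA, with 1 point per library and lines joining the libraries of a cell line (red, Type D; blue, Type V). Ccna2 fell in all 6 lines after restoration, Ccnd1 and Ccnd2 in Control were higher in every Type D line than in every Type V line, and Ccnd3 ranged over only 1.77 times.

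p53 restoration was examined within each type, Restored against Control. Ccna2, the cyclin of S phase and G2, was the gene with the largest fall of the 10 in both types. In Type D lines 1, 2 and 3 it went from 165, 234 and 167 TPM in Control to 17.4, 8.14 and 25.5 TPM in Restored. The Restored values lay below all Control values, and the lines had lost 89.4%, 96.5% and 84.8% of the transcript. On the log2(TPM + 1) scale the difference was -3.51 (SE 0.31, adjusted p = 3.80e-07). In Type V lines it went from 274, 202 and 208 TPM to 42.7, 32.6 and 42.1 TPM. Again the groups did not overlap, and 84.4%, 83.8% and 79.8% was lost, a difference of -2.51 (SE 0.31, adjusted p = 2.79e-05). In bulk RNA, fewer cells that express a gene and less of its RNA per cell cannot be told apart.

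With Ccna2 counted, 2 of the 10 genes passed in Type D, both lower, where 12.9% of all genes tested passed (5.05% lower and 7.82% higher). For Type V the count was 3, all lower, where 9.95% of all genes passed (4.57% lower and 5.38% higher). The median difference of the 10 genes was -0.01 log2 in Type D, beside 0.07 over all genes, and -0.12 in Type V, beside 0.05. With the cell line as a block, which compares each line with itself, 2 of the 10 passed in Type D, where 45.3% of all genes did (27.6% higher, 17.6% lower). The block gave 6 for Type V (2 higher, 4 lower), where 40.6% of all genes passed (22.8% higher, 17.8% lower). Among markers of other cells, Cd68, of macrophages, was higher after restoration by 1.95 and 1.28 log2 in Type D and Type V, and the fibroblast gene Col1a2 was lower by 2.86 in Type V. Their part in these results was not tested.

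**Figure D2:**
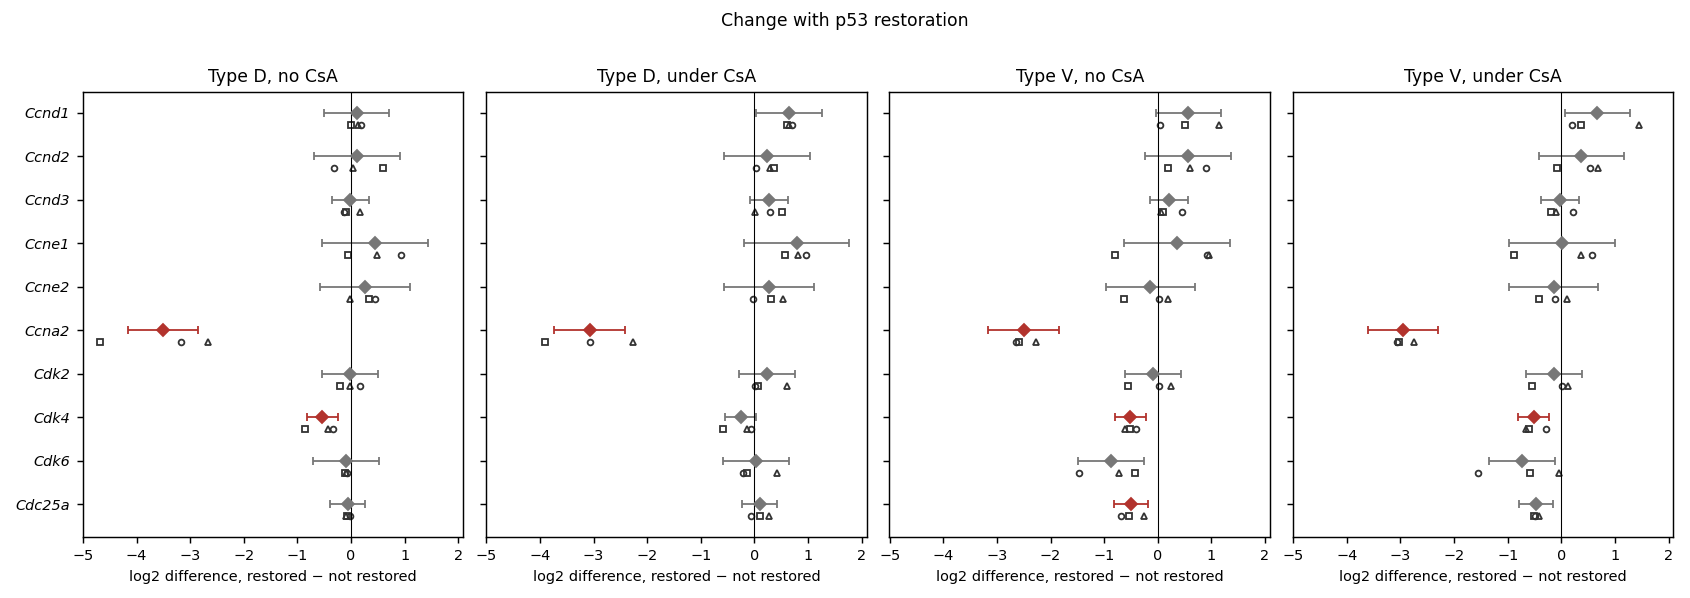
Difference with p53 restoration for each gene, in log2(TPM + 1), by type and with or without CsA. Diamonds with bars are the fitted difference and its 95% interval, red where the gene passed, and the small open symbols under each are the 3 lines (circle, square and triangle for lines 1, 2 and 3). Ccna2 is the gene that stands far left in all 4 panels, from -2.51 to -3.51, and the other genes lie between -0.87 and 0.78.

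Cdk4, the kinase that D-type cyclins activate, was the other gene lower in both types. In Type D lines 1, 2 and 3 it went from 715, 972 and 776 TPM in Control to 569, 538 and 579.5 TPM in Restored. Every Restored value lay below every Control value, with a difference of -0.53 (SE 0.14, adjusted p = 0.0123). In Type V lines it went from 895, 1011 and 972 TPM to 670.3, 707 and 636 TPM. The groups were again separate, with a difference of -0.51 (adjusted p = 0.0187). Both calls were near the threshold: without Type D line 2 the Type D difference was -0.37 (adjusted p = 0.142), without Type D line 3 the adjusted p was 0.0796, and without Type V lines 1, 2 or 3 the Type V adjusted p was 0.0672, 0.0837 or 0.151. Without Type D line 3 the Type V adjusted p was 0.0542, since the spread is shared between the groups. With the cell line as a block both calls remained.

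Cdc25a, the phosphatase that activates Cdk2, was lower after restoration in Type V. It went from 44.6, 34.9 and 35.03 TPM in Control to 27.2, 23.6 and 28.9 TPM in Restored in lines 1, 2 and 3. The groups did not overlap, and the difference was -0.50 (SE 0.15, adjusted p = 0.0443). This call rests on single lines: the adjusted p was 0.283, 0.158 and 0.0881 without Type V line 1, 2 or 3, and 0.0733 and 0.0847 without Type D line 1 or 3. In Type D the gene stood at 34.6, 39.6 and 34.4 TPM in Control and 34.0, 37.7 and 32.1 TPM in Restored, which overlap. That difference was -0.06 (95% CI -0.39 to 0.26), and it did not pass.

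Cdk6, the other partner of the D-type cyclins, had values in Type V of 45.8, 39.4 and 56.5 TPM in Control and 15.8, 29.2 and 33.9 TPM in Restored. The Restored values were all below the Control values, but by unequal amounts, -1.48, -0.42 and -0.72 log2 in lines 1, 2 and 3. The difference of -0.87 missed the threshold without the block (adjusted p = 0.0692) and passed with it (adjusted p = 0.00536). In Type D, Cdk6 stood at 28.6, 36.3 and 37.7 TPM in Control and at 27.2, 33.4 and 35.3 TPM in Restored, a difference of -0.09 (95% CI -0.71 to 0.53).

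No D-type cyclin gene was called lower. Ccnd1 in Type D stood at 708, 474 and 822 TPM in Control and 805, 474 and 894 TPM in Restored, which overlap, with a difference of 0.10 (95% CI -0.51 to 0.71). In Type V it went from 302, 250.5 and 273 TPM to 312, 358 and 602 TPM. All Restored values were above all Control values, but line 1 moved by 0.04 log2 and line 3 by 1.14, and the difference of 0.57 passed only with the block (adjusted p = 0.27 without it and 0.0387 with it). Ccnd2 in Type V went from 78.4, 115 and 59.9 TPM to 147, 130.4 and 91.7 TPM, with overlap. Its difference of 0.56 likewise passed only with the block (adjusted p = 0.446 without it and 0.0167 with it). Ccnd2 in Type D differed by 0.11 (95% CI -0.69 to 0.91), and Ccnd3 by -0.01 (95% CI -0.36 to 0.34) in Type D and 0.20 in Type V, none of which passed in either fit.

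The cyclin E genes, which encode the partners of Cdk2 at the start of S phase, gave a split among lines. Ccne1 in Type V was at 53.1, 38.1 and 44.0 TPM in Control and at 101, 21.5 and 86.7 TPM in Restored. Lines 1 and 3 were thus higher by 0.91 and 0.96 log2, and line 2 lower by 0.79. The Type V difference was 0.36 (adjusted p = 0.756), and without line 2 it was 0.94 (adjusted p = 0.0257). In Type D, Ccne1 was at 30.7, 42.7 and 32.7 TPM in Control and at 59.2, 40.8 and 46.3 TPM in Restored. These overlap, and the difference of 0.45 did not pass (adjusted p = 0.637). Ccne2 stood between 4.90 and 21.9 TPM over all libraries, and its differences of 0.25 in Type D and -0.14 in Type V did not pass. It too had a lower Restored than Control value in Type V line 2, 4.90 against 8.17 TPM.

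Cdk2 itself, the kinase of cyclins E and A, differed by -0.02 (95% CI -0.54 to 0.51) in Type D and by -0.10 in Type V. It stood at 70.2, 81.9 and 65.0 TPM in Control and 79.0, 71.2 and 64.2 TPM in Restored in Type D. The groups overlapped there, as they did in Type V, where the values were 99.9, 97.1 and 64.2 TPM in Control and 101, 66.1 and 76.1 TPM in Restored. Cdk2 passed in neither type with or without the block.

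Restoration was also examined under CsA, Restored + CsA against Control + CsA. Ccna2 fell here too. In Type D it went from 136, 181 and 128 TPM to 15.4, 11.1 and 25.8 TPM (-3.08 log2, adjusted p = 2.19e-06), and in Type V from 232, 185 and 158 TPM to 26.8, 21.7 and 22.7 TPM (-2.95, adjusted p = 4.43e-06). The groups did not overlap in either type. Cdk4 in Type V went from 864, 1046 and 943 TPM to 709.8, 686 and 599 TPM (-0.51, adjusted p = 0.0226), and the adjusted p was 0.0653 without Type D line 3 and 0.14 and 0.215 without Type V line 2 or 3. In Type D it went from 693, 946 and 733 TPM to 666, 633 and 663 TPM, a difference of -0.26 that did not pass in either fit.

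In Type D under CsA 1 of the 10 genes passed, where 8.89% of all genes did (2.91% lower, 5.98% higher). For Type V it was 2, where 7.71% did (3.4% lower, 4.3% higher). The block raised the count to 3 for Type D, where 41.1% of all genes passed (27.2% higher, 14% lower), and to 5 for Type V, where 37.1% did (20.6% higher, 16.5% lower). The added genes in Type D were Ccnd1, higher by 0.65 (adjusted p = 0.02), and Ccne1, higher by 0.78 (adjusted p = 0.0439). Ccnd1 in Type D went from 791, 552 and 768 TPM to 1281, 835 and 1201 TPM, with all 3 lines higher under restoration and no overlap. Ccne1 in Type D went from 29.8, 37.1 and 25.7 TPM to 58.9, 55.7 and 46.2 TPM, also without overlap, and it passed without the block when Type V line 2 was left out (adjusted p = 0.0155). The added genes in Type V were Ccnd1, higher by 0.67 (adjusted p = 0.0179), Cdk6, lower by 0.73 (adjusted p = 0.0173), and Cdc25a, lower by 0.47 (adjusted p = 0.000692). Cdc25a stood at 35.5, 31.0 and 32.3 TPM in Type V under CsA alone and at 25.1, 21.4 and 23.98 TPM with restoration. It passed without the block after quantile normalization (adjusted p = 0.0102), median-ratio scaling (0.0105) or without Type D line 2 (0.0395), and Cdk6 passed without Type V line 3 (-1.08, adjusted p = 0.0462).

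CsA itself was compared within each type, on Control and on Restored cells, and none of the 10 genes passed in any of the 4 comparisons, in limma with or without the block. Of all genes tested, 0% passed in limma for CsA alone in either type, 0.0142% for CsA on Restored in Type D and 0% in Type V (0.0142%, 0%, 0.411% and 0% with the block), while 114, 54, 229 and 100 genes had an unadjusted p under 0.05. Ccnd1 in Type D was at 805, 474 and 894 TPM in Restored and at 1281, 835 and 1201 TPM in Restored + CsA, higher in 3 of 3 lines, with overlap between the groups. The difference was 0.64 (95% CI 0.03 to 1.245, adjusted p = 1, and 0.191 with the block). Ccna2 in Type V was at 42.7, 32.6 and 42.1 TPM in Restored and at 26.8, 21.7 and 22.7 TPM in Restored + CsA, lower in 3 of 3 lines with no overlap. That difference of -0.69 had an adjusted p of 1 in both fits. Cdc25a in Type D was lower in 3 of 3 lines with CsA alone, from 34.6, 39.6 and 34.4 TPM to 26.5, 33.3 and 23.9 TPM, a difference of -0.37 that did not pass.

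Whether restoration acted differently in the types was tested as the difference of both changes, Type D minus Type V. For Ccna2 this was -1.0004 (95% CI -1.93 to -0.07, adjusted p = 1, and 0.163 with the block). None of the 10 genes passed without the block, where 0.0284% of all genes did (0.0213% higher, 0.00709% lower), nor with it, where 5.57% did (3.3% higher, 2.26% lower), and 540 genes had an unadjusted p under 0.05. The smallest adjusted p with the block was that of Cdc25a, at 0.0531 for a difference of 0.44. Under CsA the Cdc25a difference was 0.57 (95% CI 0.11 to 1.02), with an adjusted p of 1 without the block and 0.018 with it. It was then the only one of the 10 to pass, where 0.0142% of all genes passed without the block (0.00709% in each direction) and 5% with it (3.06% higher, 1.94% lower). The Cdk6 differences of 0.78 and 0.76 did not pass in either fit. Restorations with and without CsA use separate libraries of the same lines, so they are not independent. CsA on Restored and restoration also share the Restored libraries.

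The types were then compared directly, Type D minus Type V, within each condition. Ccnd1 and Ccnd2, which encode cyclins D1 and D2, were the members that differed in Control. In Control, Ccnd1 was at 708, 474 and 822 TPM in Type D and 302, 250.5 and 273 TPM in Type V. Ccnd2 was at 342, 139 and 310.2 TPM in Type D and 78.4, 115 and 59.9 TPM in Type V. For both genes every Type D line lay above every Type V line, with differences of 1.24 (SE 0.29, adjusted p = 0.00715) and 1.58 (SE 0.38, adjusted p = 0.0092). They were the only 2 of the 10 genes that passed, where 13.1% of all genes passed (5.91% higher and 7.21% lower in the Type D lines). The median over all genes was -0.12 log2 in Control and -0.02 after median-ratio scaling, so the 2 differences stand against a slight shift the other way.

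**Figure D3:**
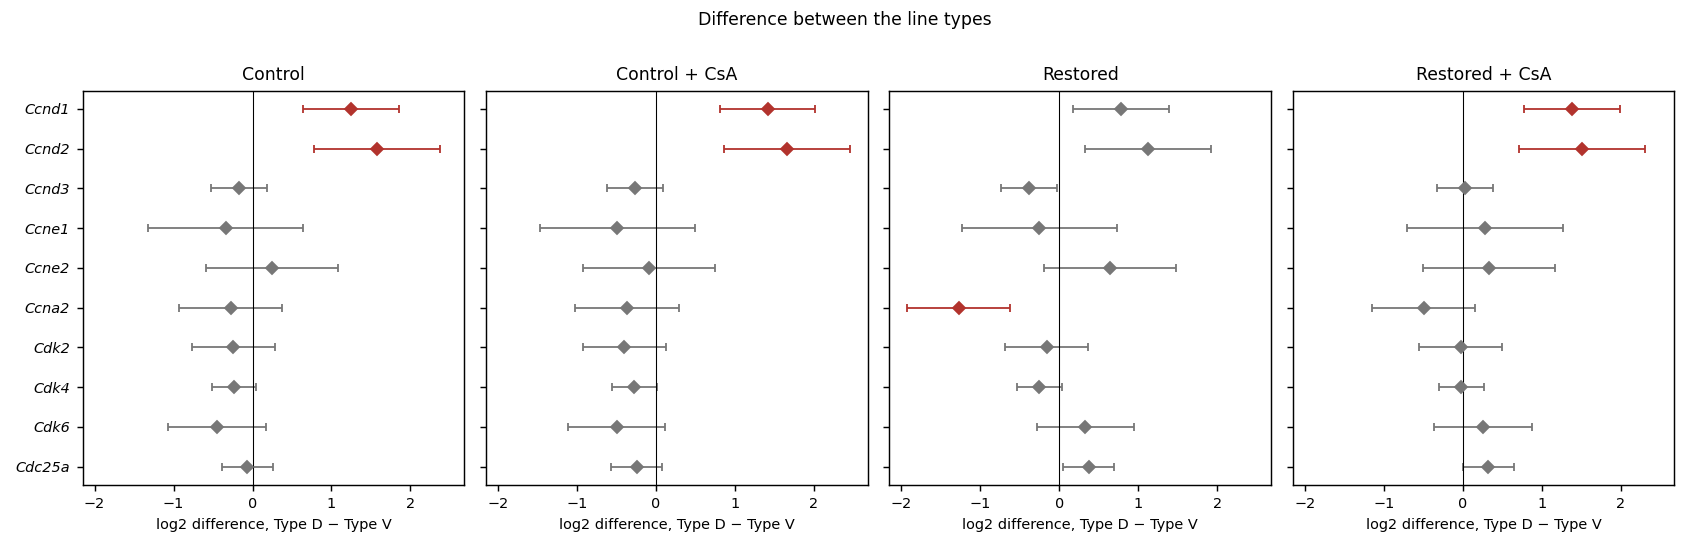
Difference between the types (Type D minus Type V, in log2(TPM + 1)) for each gene in the 4 conditions. Diamonds with bars are the fitted difference and its 95% interval, red where the gene passed. Ccnd1 and Ccnd2 lie to the right of 0 in all 4 panels, at 0.78 to 1.66, and Ccna2 in Restored lies to the left, at -1.28.

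Under CsA alone the differences were 1.41 for Ccnd1 (adjusted p = 0.00262) and 1.66 for Ccnd2 (adjusted p = 0.0061), where 15% of all genes passed, 6.55% higher and 8.44% lower. In Restored + CsA they were 1.39 (adjusted p = 0.00367) and 1.51 (adjusted p = 0.0136), where 11.9% passed (6.01% higher, 5.88% lower). Ccnd2 lost the call in Control + CsA without Type D line 1 (adjusted p = 0.0559), and in Restored + CsA without Type D line 1 or 3 or Type V line 3 (0.0796, 0.0849 and 0.0541). In Restored they were 0.78 (adjusted p = 0.0777) and 1.13 (adjusted p = 0.0548) and did not pass, where 14.8% of all genes did (6.79% higher, 8.04% lower). Ccnd1 passed there without Type D line 2 or Type V line 3 (adjusted p of 0.0154 and 0.0301) and Ccnd2 without Type D line 2 (0.0202), and with the line as a random block Ccnd2 passed (adjusted p = 0.0357). Ccnd1 in Restored overlapped between the types, through the 602 TPM of Type V line 3 and the 474 TPM of Type D line 2. These fits count the 4 libraries of a line in different groups. When each line was averaged to 1 value, Ccnd1 differed by 1.21 (SE 0.22, adjusted p = 0.0264) and Ccnd2 by 1.47 (SE 0.31, adjusted p = 0.0394), where 6.52% of all genes passed (3.21% higher, 3.3% lower). With 3 lines a type the calls rest on single lines: without Type D line 1 or 3 neither gene passed in Control (adjusted p of 0.0561 and 0.0654 for Ccnd1, and 0.0665 and 0.0853 for Ccnd2), and the line averages lost both calls without Type D line 1 or 3 or Type V line 1 or 3.

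Cdk6 was separate between the types without restoration, at 28.6 to 37.7 TPM in Type D and 39.4 to 56.5 TPM in Type V in Control, with a difference of -0.45 that did not pass (adjusted p = 0.345).

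Ccna2 was the other gene to differ, in Restored. Its 17.4, 8.14 and 25.5 TPM in Type D lay below the 42.7, 32.6 and 42.1 TPM of Type V, a difference of -1.28 (SE 0.31, adjusted p = 0.00991). It lost the call with the line as a random block (adjusted p = 0.0985), and without Type V line 3 (adjusted p = 0.06). In Control the types overlapped for Ccna2, at 165 to 234 and 202 to 274 TPM. Cdc25a in Restored was at 34.0, 37.7 and 32.1 TPM in Type D and 27.2, 23.6 and 28.9 TPM in Type V, separate groups, with a difference of 0.37 that did not pass (adjusted p = 0.116) but did after quantile normalization (0.42, adjusted p = 0.0268) or median-ratio scaling (0.41, adjusted p = 0.025). Ccne1 in Restored differed by -0.25 and did not pass, and without Type V line 2 the difference was -0.94 (adjusted p = 0.00686). In Control + CsA, Ccne1 likewise passed without Type V line 2 (-0.65, adjusted p = 0.0445) and Cdk4 without Type D line 2 (-0.41, adjusted p = 0.0396).

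Marker genes of fibroblasts also separated the types. The summed TPM of 6 such genes was at most 1.93 in any Type D library and lay at 192 to 494 in Type V in Control and at 88.7 to 193 in Restored. Of the 6, 4 could be tested, and those 4 were lower in Type D in Control. The 11 neuroendocrine markers summed to 9.63 to 20.5 TPM in Type D and 33.0 to 79.4 TPM in Type V in Control. Most of that came from Ncam1, Uchl1 and Insm1, with Control means of 11.1, 0.811 and 1.56 TPM in Type D. In Type V these means were 17.1, 27.3 and 8.33 TPM. Of the neuroendocrine markers that could be tested, only Uchl1 passed in limma in Control (-4.01 log2, adjusted p = 1.05e-05). Insm1, Ncam1 and Syp overlapped between the types and did not pass (adjusted p of 0.304, 0.536 and 0.445). Col1a1 reached 401 TPM, while Pdgfra reached 3.37 and Lum 0.844. The part of these differences in the D-type cyclin result was not tested.

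The paralogs were compared as shares of their summed TPM. Ccnd1 made up most of the D-type cyclin transcripts in both types, 67.4% ± 2.99 (SD, n = 3) in Type D and 63.9% ± 6.64 in Type V in Control. Ccnd3 made up 6.86% ± 2.58 in Type D and 16.7% ± 2.28 in Type V. These Ccnd3 shares did not overlap in any of the 4 conditions, with differences of -9.84, -11.1, -7.22 and -6.32 percentage points in Control, Control + CsA, Restored and Restored + CsA. Each had an exact two-sided permutation p of 0.1, the smallest that 3 against 3 can give, and an adjusted p of 0.4 over the 20 share comparisons. The TPM of Ccnd3 did not pass between the types in any condition, with 63.7 ± 6.86 TPM in Type D and 71.9 ± 8.98 TPM in Type V in Control. The summed D-type cyclins stood at 995 ± 277 TPM in Type D and 431 ± 22.0 TPM in Type V in Control, and reached 1550 ± 337 TPM in Type D in Restored + CsA.

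**Figure D4:**
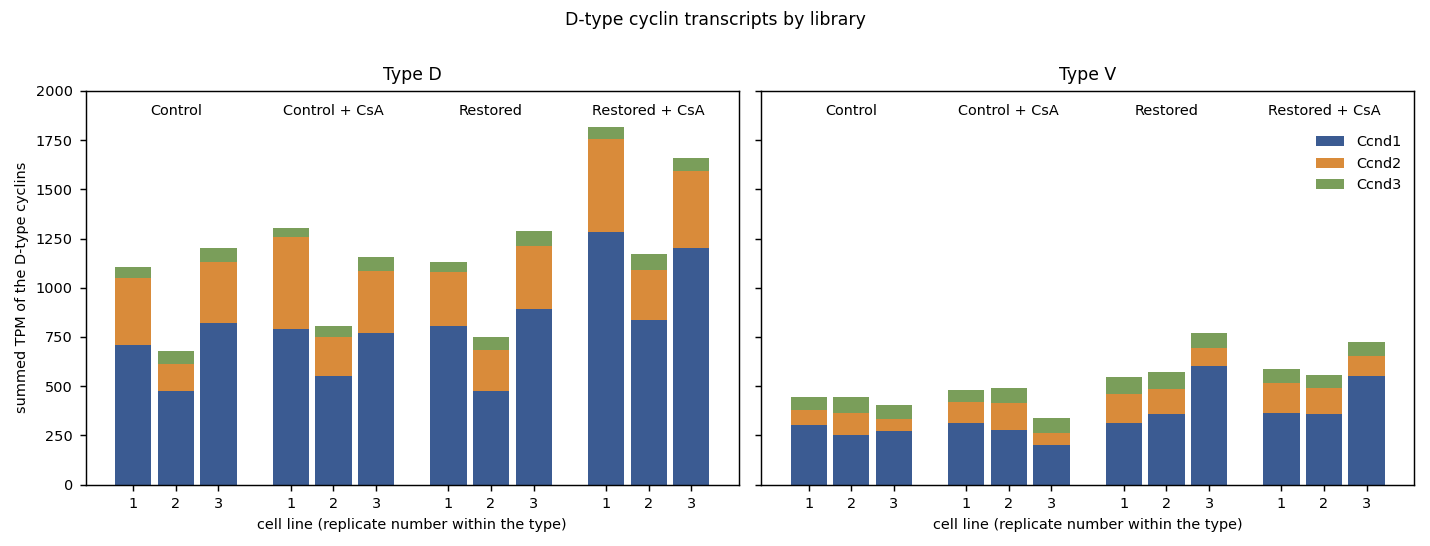
Summed TPM of the D-type cyclin genes in each library, as stacked bars (blue, Ccnd1; orange, Ccnd2; green, Ccnd3), by type, condition and line. The Type D bars are taller than the Type V bars in Control, with means of 995 and 431 TPM, while the green Ccnd3 part is of similar height in both, 63.7 and 71.9 TPM.

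Cdk4 made up 96.0% ± 0.538 of Cdk4 and Cdk6 together in Type D and 95.3% ± 0.885 in Type V in Control, and at least 93.4% in every library. Ccne1 made up 71.7% ± 8.51 of the cyclin E transcripts in Type D and 79.98% ± 3.40 in Type V in Control. In Restored the Ccne1 shares were separate, at 73.0% to 76.5% in Type D and 81.5% to 88.3% in Type V, with an exact permutation p of 0.1.

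Genes around these 10 were counted in lists, to be read against the 12.9% of all genes that passed after restoration in Type D and the 9.95% in Type V (45.3% and 40.6% with the block). Among 4 mitotic cyclin and kinase genes, 3 fell after restoration in each type. Ccnb1 and Ccnb2, the B-type cyclins, fell by 3.48 and 3.47 log2 in Type D and by 2.12 and 2.15 in Type V, and Cdk1, their kinase, fell by 2.30 and 1.54. The list median was -2.89 in Type D and -1.83 in Type V, beside 0.07 and 0.05 over all genes. With the block the counts were 3 (Type D) and 4 (Type V). Ccna2 stood at -3.51 and -2.51 beside them, and Ccne1 at 0.45 and 0.36.

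Of 16 S phase genes that E2F drives, 2 passed in each type, Tk1 (thymidine kinase) at -1.15 and -0.94 and Tyms (thymidylate synthase, outside the naming rule) at -0.61 and -0.75. Counted in either direction, that is near the share of all genes, with and without the block. Both genes were lower, where 5.05% (Type D) and 4.57% (Type V) of all genes passed as lower. The list median was -0.35 and -0.42, beside 0.07 and 0.05 over all genes. With the block 8 passed in Type D, 7 of them lower, and 6 in Type V, all lower. Of all genes, 17.6% and 17.8% passed as lower with the block. Of 13 pocket protein and E2F genes 1 changed in Type D lines and 2 in Type V lines, and with the block 5 in each. Rb1 rose by 1.595 and 1.97, and E2f8, a repressor E2F, fell by 1.496 in Type V. The Rb1 alleles had been recombined by Cre, and a TPM per gene does not show which exons were read.

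Of 7 CDK inhibitor genes 6 were tested, and Cdkn1a rose by 4.17 in Type D and 4.798 in Type V. Cdkn2d, which inhibits Cdk4 and Cdk6, fell by 1.27 in Type D, and Cdkn2a, at the locus of p16 and p19Arf, fell by 1.02 in Type V. With the block 5 passed in each type (2 higher and 3 lower in Type D, 1 higher and 4 lower in Type V). Among 18 genes of CDK activation and cyclin turnover, 6 fell and 2 rose in Type D, and 5 fell and 1 rose in Type V, where 12 and 11 passed with the block. Cdc25c and Cdc25b, the sister phosphatases of Cdc25a that act before mitosis, fell by 3.24 and 2.36 in Type D. In Type V Cdc25c fell by 2.25 and Cks2, a small subunit of Cdk complexes, by 1.81. Cdc34, a ubiquitin-conjugating enzyme that works with SCF ligases, rose by 1.29 and 1.12.

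**Figure D5:**
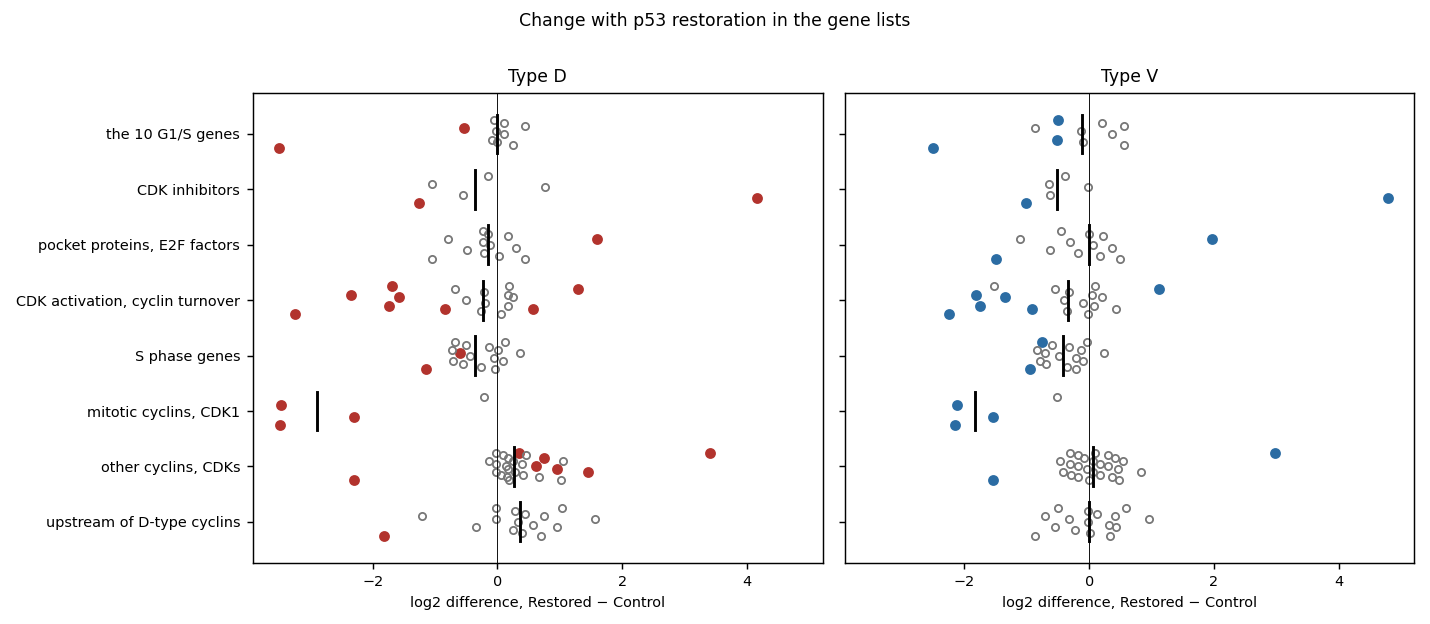
Difference with p53 restoration (log2, Restored minus Control) for every tested gene of 8 lists, in Type D and Type V. Filled points passed, open points did not, and black bars are list medians. The median of the mitotic list lies at -2.89 and -1.83, while that of the 10 G1/S genes lies at -0.01 and -0.12.

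Genes linked to growth signals, some of which answer to those signals, were counted in the comparison of types, where Ccnd1 and Ccnd2 differed. A place on this list does not show that a gene acts upstream of the D-type cyclins. Of 16 genes, 5 were higher and 1 lower in Type D in Control, where 5.91% of all genes were higher and 7.21% lower, and the list median was 0.44 beside -0.12 over all genes. Dusp6, Mycl, Etv5, Spry4 and Spry2 were higher by 2.32, 2.23, 1.37, 1.05 and 1.01, and Fosl2 was lower by 1.92. Other genes of the list that answer to growth signals did not pass, with differences of 1.96 for Fos, 0.58 for Etv4, 0.47 for Fosl1, 0.39 for Myc and -0.03 for Egr1. On line averages Dusp6, Etv5, Spry4 and Spry2 differed by 2.73, 1.51, 1.32 and 1.15, and Fosl2 by -1.58. These lists were put together with earlier results of these data known. The part of these genes in the Ccnd1 and Ccnd2 differences was not tested.

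For each gene, the genes whose log2(TPM + 1) followed it most closely over the 24 libraries were found as a description. Libraries of a line share that line, and all libraries share the design. For Ccna2 they were Kif4, Sgo1 and Aspm, genes of mitotic chromosomes and spindles, with Pearson r of 0.990, 0.989 and 0.989, and the lowest r was that of Mdm2, a p53 target, at -0.967. For Ccnd1 they were Etnk1, Taok3 and Ptprt (0.917, 0.913 and 0.902), and for Ccnd2 they were Plce1, Mfsd3 and B3gnt3 (0.941, 0.931 and 0.929). For Ccne1 they were Tipin and Chaf1b, which act at replication forks and in chromatin assembly, and Lrrc8c (0.939, 0.903 and 0.899). For Cdk4 they were Sub1, Chd3 and Sass6 (0.932, 0.921 and 0.918), and the remaining 5 genes had a highest r of 0.814 to 0.899. Between members, r was 0.859 for Ccnd1 and Ccnd2, 0.857 for Ccna2 and Cdk4, and 0.589 for Ccne1 and Ccne2.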

How the data were processed

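RNA had been isolated from 3 Type D and 3 Type V lines after 72 h, and stranded mRNA libraries were read single-end. The authors deposited TPM values per gene, in which each library sums to 1000000. Their methods name Kallisto or HISAT2 and write mm10 with GRCm39, and which made this table is not stated. TPM holds no counts, so no count test was used. Values were analysed as log2(TPM + 1), which understates changes of low genes. A gene was tested if 3 or more libraries held it at 1 TPM or above (14104 of 25239), with limma 3.58.1 in R 4.3.3, with 1 coefficient for each of 8 groups, two-sided, adjusted by Benjamini-Hochberg within each of 15 comparisons. The code was tested on simulated data.

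Libraries of a line share that line per the labels. After removing group means they correlated at r of 0.599 to 0.929 (36 pairs), and libraries of other lines of the type at -0.675 to 0.0438 (72 pairs). Where libraries of a line are alike, removing the mean of 3 lines by itself makes different lines correlate negatively. The block was an alternative, fixed within types and random between types (correlation 0.736). Line averages over 4 conditions were compared in a separate limma fit. Paralog shares were compared by exact permutation in Python 3.11.15. The 10 members and all lists were chosen with earlier results of these data known. All 10 members are described. From the lists, the rule named the 2 largest rises and falls per list after restoration among genes that passed, changed by at least 1 log2 and moved the same way in 3 of 3 lines. Alternatives (pseudocount, filter, scaling, compared groups alone, lines left out) are given at the end. Genes named in the comparison of types were chosen after their values were seen. The level of 1 marker gene is not reported here.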

Additional observations from a re-analysis of the deposited data

Results flagged for a closer look

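Cdc25a is listed here because its change with restoration under CsA differed between the types in the fit with the cell line as a block, by 0.57 log2 (Type D minus Type V, adjusted p = 0.018). Without the block the same difference had an adjusted p of 1. The Type D lines changed by -0.07, 0.10 and 0.26 log2 and the Type V lines by -0.48, -0.51 and -0.42, so the lines of the types did not overlap. Without CsA the difference was 0.44 and missed the threshold with the block (adjusted p = 0.0531).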

How the results depend on the processing

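The falls of Ccna2 with restoration passed in both types, with and without CsA, under every alternative run. Those were no filter (20066 genes), a minimum of 5 TPM (11785 genes), a pseudocount of 0.1, median-ratio scaling (factors 0.887 to 1.12), quantile normalization, a fit to the compared groups alone, the cell line block and each line left out. Of 1930 single differences under an alternative, 1799 kept direction and side of the threshold, 41 no longer passed, 24 newly passed and 66 had the other sign, 5 of these with a reported difference over 0.2 log2. Of the 10 genes, the number that passed moved as follows, and the cause was not tested. With the compared groups alone, where fewer samples inform the spread, it was 1 for restoration in Type D (2 as reported) and in Type V (3), 1 under CsA in Type V (2), 1 between types in Control (2) and in Control + CsA (2), and 0 in Restored (1). With the replicate block it was 6 for restoration in Type V, 3 and 5 under CsA in Type D and Type V (1 and 2), and 1 for the difference of restoration under CsA (0). The other counts did not change with the block by more than 1.5 times. Between types in Restored it was 2 with quantile normalization and 2 with median-ratio scaling. On line averages it was 0 without a filter (2). With each line left out in turn it ran from 1 to 2 for restoration in Type D, 1 to 3 in Type V, 1 to 2 and 1 to 3 under CsA, 0 to 2 between types in Control, 1 to 3 in Control + CsA, 1 to 3 in Restored, 1 to 2 in Restored + CsA and 0 to 2 on line averages. With each line left out, the Ccnd3 share difference ran from -13.3 to -5.53 points over the conditions. Its sign could not change, because the shares of the types did not overlap. TPM gives no depth, so counting error is unknown, and 3 lines a type limit the precision.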

Other observations

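Of a list of 29 further cyclin and Cdk genes 26 were tested, among them Cdk1, which the mitotic list also holds. In Type D, 6 rose and 1 fell after restoration (median 0.26 log2 beside 0.07 over all genes), and in Type V 1 rose and 1 fell (median 0.05 beside 0.05). With the block 12 passed in each type, 11 of them higher in Type D and 8 in Type V. Of all genes, 12.9% (Type D) and 9.95% (Type V) passed without the block, 7.82% and 5.38% as higher. With it 45.3% and 40.6% passed, 27.6% and 22.8% as higher. Counted in either direction, the list with the block is near the share of all genes. Ccng1, a p53 target that encodes cyclin G1, rose by 3.41 in Type D and 2.98 in Type V. Ccno, an atypical cyclin known from multiciliated cells, rose by 1.46 in Type D. The 1 gene that fell was Cdk1 in both types, already counted among the mitotic genes. Cdk17, Ccnl1, Ccnt1 and Cdk9, the last 3 of which belong to complexes that act on splicing or on RNA polymerase II, rose by 0.95, 0.75, 0.62 and 0.34 in Type D and were named after their values were seen. No gene of this list passed the test of the difference between the types.

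Among the 16 growth signal genes, 1 passed after restoration in Type D and 0 in Type V (7 and 3 with the block). Of all genes, 12.9% and 9.95% passed (45.3% and 40.6% with the block), and the counts do not exceed these shares. The gene that passed without the block was Mycl, which fell by 1.82 in Type D. Mycl was low throughout, with a median of 1.20 TPM and a highest value of 14.8 TPM.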
